A study of Homo sapiens with 4 samples.

Results

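The 10 human globin genes of the alpha and beta loci (HBZ, HBM, HBA2, HBA1 and HBQ1 on chromosome 16, and HBE1, HBG2, HBG1, HBD and HBB on chromosome 11) were followed in CD31+ cells made from the human embryonic stem cell line H1 at day 8 of hematopoietic differentiation. They were picked out of the table by gene symbol, with no measured value in the rule, and are 10 of the 58229 genes kept from the expression table, with 5 genes in each locus and a single row per gene. CD31, encoded by PECAM1, marks endothelium and many early blood cells. Control cells (2 libraries) did not overexpress HAND1, whereas HAND1_OE cells (2 libraries) came from H1 that overexpressed the transcription factor HAND1, which a scheme in the study ties to doxycycline. According to the study, HAND1 was ectopically expressed ahead of the switch from hemogenic endothelial cells to blood progenitors. Both groups went through the same stepwise induction with activinA and BMP4 and then with VEGF and bFGF. The labels name neither the vector and promoter that drove HAND1 nor whether the line was a clone, and nothing states that the 2 libraries of a group came from separate cultures, so p-values measure the spread between these libraries, which may be technical.

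Hemoglobin carries oxygen as a tetramer that pairs alpha-like chains, encoded on chromosome 16, with beta-like chains, encoded on chromosome 11. In each locus the genes lie in the order in which they are used during development, and distant enhancers are brought to 1 gene after another. HBZ (zeta) and HBE1 (epsilon) serve the embryonic yolk sac red cells, HBG1 and HBG2 (gamma) the fetus, and HBB (beta) and HBD (delta) the adult, while HBA1 and HBA2 (alpha) serve both fetus and adult. Globin transcripts are made in erythroid cells under GATA1, KLF1 and TAL1, so their level is a common readout of primitive and definitive red cell development in stem cell cultures.

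Because promoters are where these factors act close to the gene, the promoters of the members were taken from the RefSeq table (GRCh38.p14), which held HBD and HBM; the entries for HBZ, HBA1, HBA2, HBQ1, HBE1, HBG1, HBG2 and HBB were missing. The 250 bases before each start site are given below, 5′ to 3′ on the strand of the gene, for HBD at chr11:5234484-5234733 (minus strand) and for HBM at chr16:165728-165977 (plus strand). HBD was among the better expressed members and HBM was the lowest. Capitals mark matches to the motifs listed after them.
HBD: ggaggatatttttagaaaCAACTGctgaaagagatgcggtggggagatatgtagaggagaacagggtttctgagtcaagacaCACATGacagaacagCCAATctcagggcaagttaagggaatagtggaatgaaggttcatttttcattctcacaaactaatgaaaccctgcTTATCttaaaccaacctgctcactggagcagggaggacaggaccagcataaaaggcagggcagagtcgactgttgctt
HBM: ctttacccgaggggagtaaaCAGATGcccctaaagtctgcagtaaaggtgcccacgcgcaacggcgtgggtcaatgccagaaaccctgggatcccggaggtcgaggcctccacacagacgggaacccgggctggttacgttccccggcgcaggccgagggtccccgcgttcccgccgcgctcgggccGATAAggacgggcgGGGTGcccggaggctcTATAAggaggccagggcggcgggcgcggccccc

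On either strand, 7 motifs were searched by their letters. The letters GATAA were searched for GATA factors, as were the letters TGATA, which can overlap the former. The letters CACCC stood for KLF factors, the CCAAT box and the TATA box (letters TATAA) for general promoter elements, the E-box (letters CANNTG) for TAL1 with its partners, and the letters TGACCA for BCL11A. HBD held GATAA on the opposite strand (printed TTATC) starting at position -78 from the start site, CCAAT at -153 and E-boxes at -232 and -168. HBM held GATAA at -63, CACCC on the opposite strand (printed GGGTG) at -49, TATAA at -33 and an E-box at -230. Of 35116 promoters of the same length, 20.4% held the first GATA motif and 17.8% the other, 54.7% the KLF motif, 32.0% the CCAAT box, 61.8% the E-box, 18.9% the TATA box and 9.19% the BCL11A motif. These matches describe letters only.

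Expression was given as FPKM, the fragments of a gene scaled to its transcript length and to the depth of the library, so levels of different genes can be set side by side per length. Depth was not given. It was estimated from the smallest steps between low values, each worth 1 fragment, at 21700000 to 26400000 fragments per library. HAND1 was at 12.1 and 14.3 FPKM in Control against 520 and 517 FPKM in HAND1_OE. Its log2 fold change of 5.20 fits the labels. The values below give replicates 1 and 2 of Control and then replicates 1 and 2 of HAND1_OE. Fold changes are of log2(FPKM + 1), HAND1_OE minus Control, with the SE and the adjusted p of limma over 14622 genes, and they understate the change of low genes. A gene listed at 0 need not be silent, since the widely used SLC25A6 and HSPA1A were also listed at 0 in every library.

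Globin transcripts of all developmental stages were lower in HAND1_OE cells. Of the 10 genes, 9 passed the filter on low values, 8 of them were lower at an adjusted p under 0.05, none was higher, HBB did not pass the test and HBM was too low to be tested. Among all genes tested, 2.11% were called lower and 2.04% higher. The median log2 fold change was -2.76 over the 9 globins tested and -0.08 over all genes tested. HBE1 ranked 4 and HBG2 ranked 6 among all falls. When all 29860 genes above 0 in any library were tested, 0 globins and 0 genes overall were called by limma, although 8 globins had an unadjusted p under 0.05. In all 10 genes both HAND1_OE libraries lay below both Control libraries, an arrangement found in 30.1% of the genes tested. In bulk RNA, fewer erythroid cells and less globin RNA per cell cannot be told apart.

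**Figure D1:**
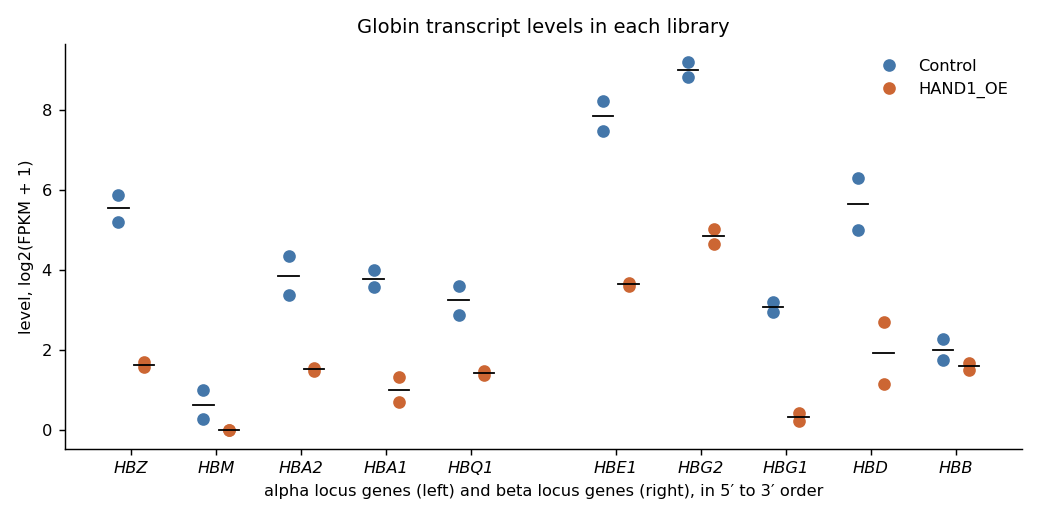
Level of each globin, as log2(FPKM + 1), in the 2 Control (blue) and 2 HAND1_OE (orange) libraries, with 1 point per library and a line at the group mean. Every HAND1_OE point lies below the Control points of the same gene. The difference between group means is smallest at HBB (log2 fold change -0.42) and largest at HBE1 (-4.19).

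The embryonic globins fell steeply. HBE1 (ENSG00000213931.5, chromosome 11, 5268345 to 5505617), the first gene of the beta locus, was at 175 and 295 FPKM in Control against 11.8 and 11.1 FPKM in HAND1_OE. The Control libraries differed between themselves, but the lower of them was still far above both HAND1_OE libraries. Its group means were 235 ± 85.0 and 11.5 ± 0.521 FPKM (SD, n = 2 each), a ratio of 20.4 in FPKM, and limma gave a log2 fold change of -4.19 (SE 0.26, adjusted p = 0.00607). HBZ (ENSG00000130656.4, chromosome 16, 152687 to 154503), the alpha-like partner of the same stage, was at 35.7 and 57.9 FPKM in Control against 2.25 and 1.98 FPKM in HAND1_OE. Here too the replicate with the higher value in Control was replicate 2, and the HAND1_OE libraries were close to each other. Means of 46.8 ± 15.7 and 2.12 ± 0.185 FPKM gave a ratio of 22.1, with a log2 fold change of -3.90 (SE 0.25, limma adjusted p = 0.00658). HBE1 exceeded HBZ by a ratio of 4.89 and 5.09 in Control and of 5.28 and 5.60 in HAND1_OE, so that this embryonic pair kept nearly the same proportion while both fell.

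HBG2 (ENSG00000196565.13, chromosome 11, 5253190 to 5645789), a fetal gamma globin, was the most abundant globin in each of the 4 libraries. It was at 449 and 578 FPKM in Control against 31.6 and 24.3 FPKM in HAND1_OE. The group means, 514 ± 90.8 and 27.9 ± 5.19 FPKM, stood at a ratio of 18.4, and the log2 fold change was -4.15 (SE 0.21, limma adjusted p = 0.00379). HBG1 (ENSG00000213934.6, chromosome 11, 5248083 to 5249892), its near copy, was much lower, at 6.69 and 8.20 FPKM in Control against 0.361 and 0.169 FPKM in HAND1_OE. By the longest coding transcript of HBG1 (779 nt), the HAND1_OE values rest on an estimated 4.66 and 1.90 fragments, and on fewer by a shorter one. The ratio of the HBG1 means, 28.1, is therefore imprecise. The log2 fold change of HBG1, -2.74 (SE 0.21, limma adjusted p = 0.00700), is understated by the pseudocount. HBG1 made up 1.47% and 1.40% of the gamma sum in Control and 1.13% and 0.694% in HAND1_OE. Of all 50-base windows in the HBG1 transcripts, 53.0% also occur in HBG2 transcripts, so the split between both genes is uncertain, and the sum in FPKM also moves with it as far as transcript lengths differ. That sum was 456 and 586 FPKM in Control and 32.0 and 24.4 FPKM in HAND1_OE. The annotated span of HBG2 also contains HBE1, so reads of long transcripts over both could be assigned to either gene.

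The alpha globins HBA1 (ENSG00000206172.8, chromosome 16, 176680 to 177522) and HBA2 (ENSG00000188536.12, chromosome 16, 172847 to 173710) encode the same chain. HBA1 was at 10.9 and 14.9 FPKM in Control against 1.52 and 0.623 FPKM in HAND1_OE, with a log2 fold change of -2.76 (SE 0.28, limma adjusted p = 0.0105). HBA2 was at 9.41 and 19.2 FPKM in Control against 1.79 and 1.96 FPKM in HAND1_OE, with a log2 fold change of -2.33 (SE 0.33, limma adjusted p = 0.0258). The groups lay apart in both genes, although the Control replicates of HBA2 differed more from each other than those of HBA1. Means were 12.9 ± 2.80 and 1.07 ± 0.635 FPKM for HBA1, a ratio of 12. For HBA2 they were 14.3 ± 6.93 and 1.88 ± 0.124 FPKM, a ratio of 7.62. The transcripts share 83.1% of the 50-base windows of HBA1 and 67.5% of those of HBA2, and their sum was 20.3 and 34.1 FPKM in Control against 3.31 and 2.59 FPKM in HAND1_OE.

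The adult beta-like genes gave different results, though the difference between them was not tested. HBD (ENSG00000223609.7, chromosome 11, 5232678 to 5235370), which makes the delta chain of the minor adult hemoglobin, was at 76.9 and 30.8 FPKM in Control against 5.51 and 1.24 FPKM in HAND1_OE. In both groups replicate 1 was the higher library, and on the log2 scale the spread within each group was the widest among the globins tested. Its means of 53.8 ± 32.6 and 3.38 ± 3.02 FPKM gave a log2 fold change of -3.70 (SE 0.62, limma adjusted p = 0.0385), and this call was lost with a pseudocount of 0.1 (adjusted p = 0.0518). Its log2 fold change was -3.06 without Control replicate 1, -4.35 without Control replicate 2, -4.47 without HAND1_OE replicate 1 and -2.93 without HAND1_OE replicate 2. HBB (ENSG00000244734.3, chromosome 11, 5225464 to 5229395), the main adult beta globin, was low throughout, at 2.39 and 3.82 FPKM in Control against 1.86 and 2.22 FPKM in HAND1_OE. The HAND1_OE libraries lay below the Control libraries by a narrow gap, with means of 3.11 ± 1.01 and 2.04 ± 0.256 FPKM, and the log2 fold change of -0.42 (SE 0.24, limma adjusted p = 0.476) did not pass the test. HBB rests on an estimated 10.4 to 38.5 fragments per library, and what size of change this depth could show was not tested. HBB shares only 1.62% of its 50-base windows with HBD and none with the other globins. Relative to HBG2, HBB was at a ratio of 0.00533 and 0.00662 in Control and of 0.0588 and 0.0914 in HAND1_OE.

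The minor alpha-like genes were low. HBQ1 (ENSG00000086506.2, chromosome 16, 180453 to 181181), which encodes theta globin at the end of the locus, was at 6.39 and 11.1 FPKM in Control against 1.78 and 1.62 FPKM in HAND1_OE. The groups did not overlap, and the log2 fold change was -1.81 (SE 0.27, limma adjusted p = 0.0302), the least of the globins called; the call was lost after scaling each library to the same FPKM sum (adjusted p = 0.0518). HBM (ENSG00000206177.6, chromosome 16, 153892 to 166768), which encodes mu globin, was at 0.208 and 1.01 FPKM in Control, an estimated 1.0 and 4.73 fragments. It was listed at 0 in both HAND1_OE libraries, and no fold change is given. The annotated span of HBM begins inside HBZ, so reads over that stretch could be assigned to either gene.

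The order of the levels in Control was HBG2, HBE1, HBD, HBZ, HBA2, HBA1, HBQ1, HBG1, HBB and HBM. HBD and HBZ overlapped between libraries, as did each neighbouring pair from HBA2 to HBG1, whereas the other neighbours lay apart. In HAND1_OE the order was HBG2, HBE1, HBD, HBZ, HBB, HBA2, HBQ1, HBA1, HBG1 and HBM. The first 4 places were thus held by the same genes in both groups, and HBB moved up from rank 9 to rank 5. In HAND1_OE the neighbours from HBD to HBA2 overlapped.

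Summed over each locus, beta-like transcripts exceeded alpha-like transcripts in every library. The alpha locus summed to 62.6 and 104 FPKM in Control and to 7.33 and 6.20 FPKM in HAND1_OE, and the log2 of the sum plus 1 changed by -3.40. The beta locus summed to 710 and 915 FPKM in Control and to 51.2 and 39.0 FPKM in HAND1_OE, a change of -4.14. Both loci lay apart between groups without overlap. The ratio of beta to alpha was 11.3 and 8.80 in Control and 6.98 and 6.30 in HAND1_OE. Whether reads shared by HBA1 and HBA2, or by HBG1 and HBG2, were all counted is not known. Any loss of them would change both sums and their ratio. Together the 10 globins held 0.127% and 0.190% of the FPKM of all genes in Control and 0.0101% and 0.00829% in HAND1_OE. Sums, shares and ratios are given without a p, since an exact permutation test of 2 against 2 libraries cannot go below 0.333.

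Within the alpha locus the share of the embryonic gene was lower in HAND1_OE. HBZ held 57.0% and 55.7% of the locus in Control and 30.6% and 32.0% in HAND1_OE, a difference of -25.0 percentage points between means. HBQ1 held 10.2% and 10.6% in Control and 24.2% and 26.2% in HAND1_OE. HBA1 and HBA2 together held 32.5% and 32.7% in Control and 45.1% and 41.8% in HAND1_OE. All of these shares lay apart between groups by more than the replicates differed. By itself, HBA2 held 15% and 18.5% in Control against 24.4% and 31.7% in HAND1_OE, whereas HBA1, with 17.4% and 14.3% against 20.7% and 10.1%, overlapped between groups. The HAND1_OE shares rest on few fragments, an estimated 27.6 and 21.1 for HBZ and 11.5 and 9.14 for HBQ1.

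Within the beta locus the proportions of the leading genes were close between groups. HBG2 held 63.3% and 63.1% in Control and 61.7% and 62.2% in HAND1_OE, a difference of -1.22 percentage points, while the ratio of its levels was 18.4. HBE1 held 24.6% and 32.2% in Control and 23.2% and 28.5% in HAND1_OE, and these overlapped. Its difference of means, -2.59 percentage points, became 1.22 without Control replicate 2 and 0.08 without HAND1_OE replicate 1. HBG2 exceeded HBE1 by a ratio of 2.57 and 1.96 in Control and of 2.67 and 2.18 in HAND1_OE, again with overlap.

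HBD held 10.8% and 3.37% of the beta locus in Control and 10.8% and 3.18% in HAND1_OE. The share thus followed the replicate number and not the group. HBB held 0.337% and 0.418% in Control and 3.63% and 5.69% in HAND1_OE, with a wide gap between groups. Its level was not higher in HAND1_OE (1.86 and 2.22 FPKM against 2.39 and 3.82 FPKM in Control), so the share was larger because the locus sum was smaller. HBB rests on an estimated 10.4 to 23.6 fragments in HAND1_OE. The ratio of HBD to HBB was 32.1 and 8.06 in Control and 2.97 and 0.560 in HAND1_OE. That gap between groups was smaller than the difference between the Control replicates. HBG1 held 0.942% and 0.895% in Control and 0.705% and 0.434% in HAND1_OE.

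**Figure D2:**
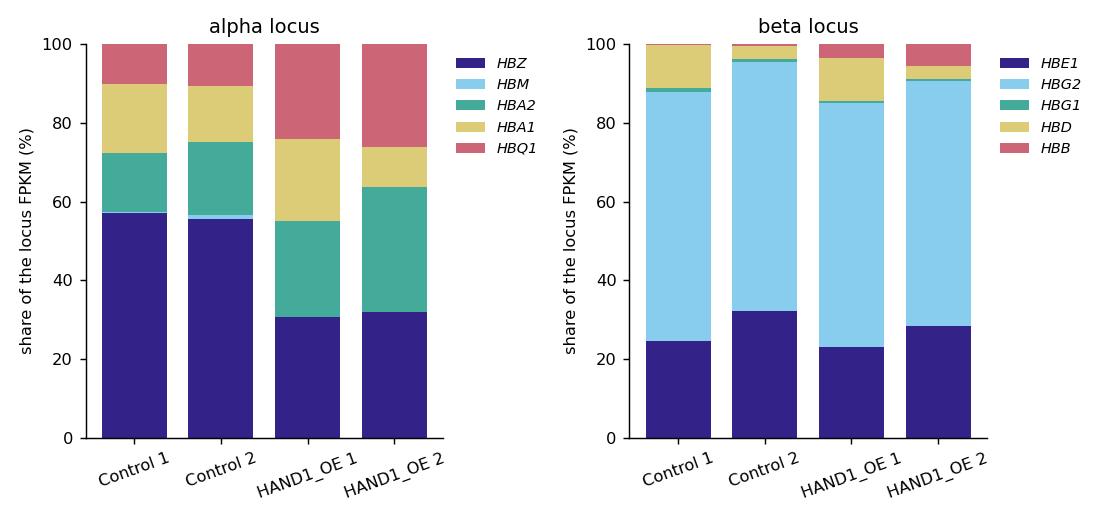
Share of each gene in the summed FPKM of its locus (percent, vertical axis) in each of the 4 libraries, for the alpha locus (left) and the beta locus (right). HBZ drops from 57.0% and 55.7% in Control to 30.6% and 32.0% in HAND1_OE, while HBG2 stays between 61.7% and 63.3% in all libraries.

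By developmental stage, the embryonic genes (HBZ and HBE1) held 27.2% and 34.6% of all globin FPKM in Control and 24.1% and 29% in HAND1_OE, with overlap. The fetal genes held 59.0% and 57.5% in Control and 54.6% and 54.1% in HAND1_OE. The genes HBA1, HBA2, HBB and HBD held 12.9% and 6.74% in Control and 18.2% and 13.4% in HAND1_OE. For these genes the gap between groups, from 12.9% to 13.4%, was smaller than the difference between replicates.

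Genes around the loci were examined next. Of 11 neighbours of the alpha locus, 8 were tested, and 0 were lower and 0 higher in limma, with a median log2 fold change of 0.02. Among all genes tested, 2.11% were called lower and 2.04% higher, so a count of 0 among 8 genes is near those shares. NPRL3, whose introns hold the main enhancers of the alpha locus, was at 16.8 and 17.3 FPKM in Control against 17.0 and 12.9 FPKM in HAND1_OE (log2 fold change -0.19, SE 0.18, adjusted p = 0.696). The 12 olfactory receptor genes that flank the beta locus were all too low to be tested. Inside the beta locus the pseudogene HBBP1 was at 10.4 and 13.1 FPKM in Control against 0.883 and 0.300 FPKM in HAND1_OE, lower by a log2 fold change of -3.02 (SE 0.25, limma adjusted p = 0.00730). BGLT3, a noncoding transcript next to HBG1, was at 0.831 and 2.33 FPKM in Control against 0.107 and 0 FPKM in HAND1_OE and was not tested. Of the globins outside both loci none was called: MB (myoglobin), NGB (neuroglobin) and ADGB were at or near 0 in all libraries, and CYGB (cytoglobin) was at 3.80 and 2.95 FPKM in Control against 9.97 and 5.07 FPKM in HAND1_OE (log2 fold change 0.91, SE 0.31, limma adjusted p = 0.224).

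**Figure D3:**
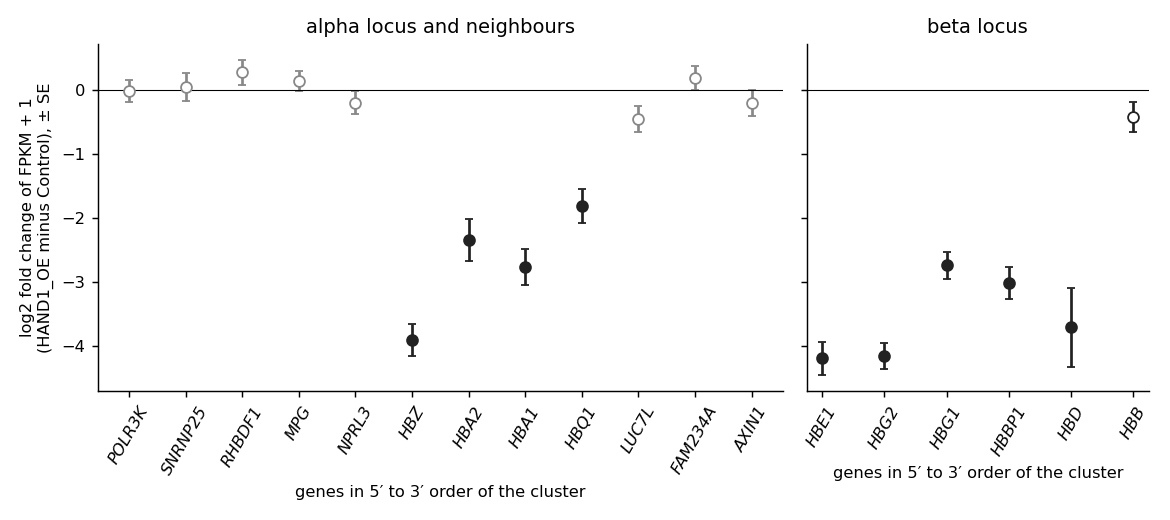
Log2 fold change of FPKM + 1 (HAND1_OE minus Control, vertical axis) with its SE for the tested genes of the alpha locus with its neighbours (left) and of the beta locus (right), in order along the chromosome from the embryonic end, not to scale. Black points are globin genes and HBBP1, grey points are neighbours, and filled points passed the limma test. The neighbours, none of which passed, lie between LUC7L (-0.44) and RHBDF1 (0.28). HBB (-0.42), the only globin shown that did not pass, lies within that range.

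Factors that act on the globin loci were then compared, from lists of 18 activators and looping factors, 27 repressors and cofactors, and 7 timing factors. Of 16 genes of the first list tested, 9 were lower (GFI1B, itself a repressor, among them) and 0 higher, with a median log2 fold change of -1.17. Among all genes tested, 2.11% were called lower. GATA1, the main erythroid transcription factor, was at 25.6 and 29.6 FPKM in Control against 1.51 and 0.543 FPKM in HAND1_OE (log2 fold change -3.86, SE 0.27, limma adjusted p = 0.00700). KLF1, which drives HBB in adult cells, was at 20.5 and 27.9 FPKM in Control against 1.11 and 0.436 FPKM in HAND1_OE (log2 fold change -3.84, SE 0.26, limma adjusted p = 0.00700). NFE2, which binds the enhancers of both loci, was at 33.3 and 40.2 FPKM against 2.42 and 1.26 FPKM (log2 fold change -3.76, SE 0.25, limma adjusted p = 0.00662). These 3 genes were about as far apart between groups as the embryonic globins. RUNX1, a factor of the onset of hematopoiesis, was lower by a log2 fold change of -3.22 (limma adjusted p = 0.0132).

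The other genes of this list that were called included GFI1B, which acts as a repressor in erythroid and megakaryocyte cells although the list holds it (log2 fold change -3.08, limma adjusted p = 0.00754). MYB, a progenitor factor linked to fetal globin levels, was at 25.9 and 27.9 FPKM in Control against 7.14 and 7.69 FPKM in HAND1_OE (log2 fold change -1.73, SE 0.15, limma adjusted p = 0.00780). LMO2 and LDB1, which bridge enhancers and promoters, had log2 fold changes of -1.22 (limma adjusted p = 0.0258) and -0.88 (limma adjusted p = 0.0453), and STAT5A, a mediator of erythropoietin signals, of -1.25 (limma adjusted p = 0.0176). TAL1, the E-box factor of the same complex, was at 35.8 and 47.8 FPKM in Control against 12 and 28.4 FPKM in HAND1_OE and did not pass the test (log2 fold change -1.12, SE 0.40, limma adjusted p = 0.232).

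Of 26 repressors and cofactors tested, 1 was lower and 0 higher, a share near the 2.11% of all genes called lower, with a median log2 fold change of -0.22. The called gene was IKZF1 (Ikaros), at 3.17 FPKM in each Control library and at 0.405 and 0.612 FPKM in HAND1_OE (log2 fold change -1.47, SE 0.20, limma adjusted p = 0.0248). BCL11A, the repressor of fetal globin, was low, at 1.36 FPKM in each Control library and at 0.61 and 0.602 FPKM in HAND1_OE, and did not pass the test (limma adjusted p = 0.249). ZBTB7A, another repressor of fetal globin, was at 6.83 and 7.71 FPKM against 6.35 and 5.27 FPKM (log2 fold change -0.28, SE 0.18, limma adjusted p = 0.516).

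Of 7 timing factors tested, 0 were lower and 0 higher in limma, and the median log2 fold change was -0.03. LIN28B, which keeps the fetal state, was at 12.5 and 15.4 FPKM in Control against 14.6 and 17.3 FPKM in HAND1_OE (log2 fold change 0.19, SE 0.18, limma adjusted p = 0.697). IGF2BP1, an RNA-binding protein linked to fetal globin, was at 32.5, 30.9, 30.7 and 30.6 FPKM (log2 fold change -0.05, SE 0.14, limma adjusted p = 0.921). Over all 3 lists, 10 of 49 factors tested were lower and 0 higher, against 2.11% lower and 2.04% higher among all genes tested.

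**Figure D4:**
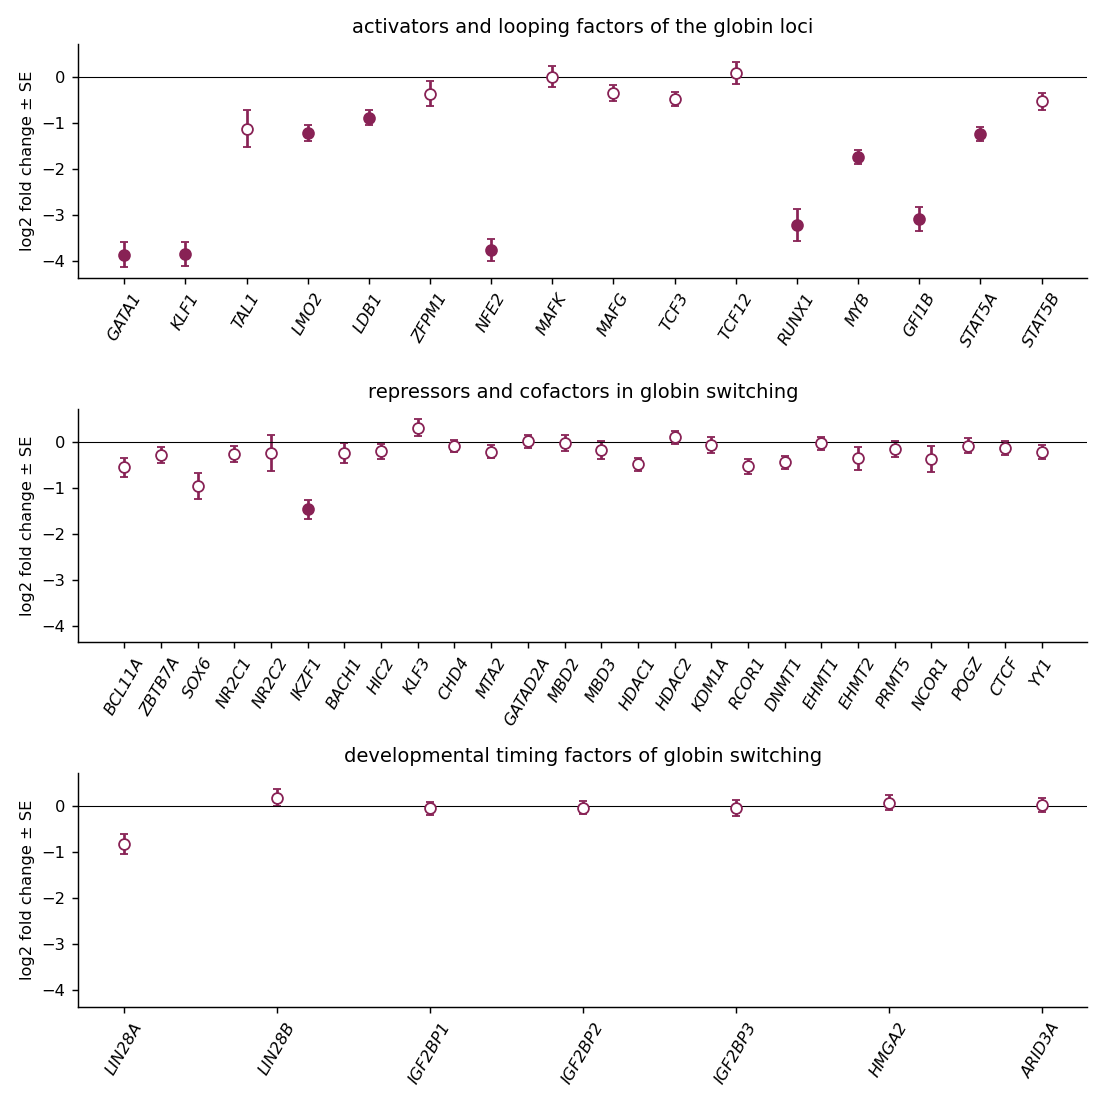
Log2 fold change of FPKM + 1 (HAND1_OE minus Control, vertical axis) with its SE for the tested activators (top), repressors and cofactors (middle) and timing factors (bottom). Filled points passed the limma test. GATA1 (-3.86), KLF1 (-3.84) and NFE2 (-3.76) lie lowest, and all timing factors have open points.

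Partners of the globin chains came next. Of all genes tested, 2.04% were called higher. Of 9 genes tested for hemoglobin assembly and the control of globin synthesis, 0 were lower and 1 was higher. That gene, CYB5A, encodes cytochrome b5, which takes part in reducing methemoglobin. It was at 43.9 and 40.6 FPKM in Control against 75.3 and 73.3 FPKM in HAND1_OE (log2 fold change 0.80, SE 0.14, limma adjusted p = 0.0422). AHSP, the chaperone of free alpha chains, was at 0.432 and 0.400 FPKM in Control and listed at 0 in both HAND1_OE libraries. It was too low in all libraries to be tested. The list otherwise holds genes that many cell types use, such as HSPA8 and ATF4.

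The globins were set beside marker lists. Of all genes tested 2.11% were called lower, whereas of 20 erythroid markers tested, with globins left out, 10 were lower and 0 higher. Among them were GYPB (log2 fold change -4.93), ALAS2 (-4.18) and RHAG (-3.81), which encode a red cell surface protein, the heme synthesis enzyme of red cells and a membrane protein of the Rh complex. ALAS2 was at 35.3 and 72.0 FPKM in Control against 1.82 and 1.87 FPKM in HAND1_OE. The erythroid sum was 451 and 644 FPKM in Control and 282 and 249 FPKM in HAND1_OE, of which GYPC, also used outside the erythroid lineage, made up 86.5, 69.4, 180 and 130 FPKM. SLC4A1, a marker of late erythroid cells, was at or near 0 in all libraries.

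Most tested markers of the other blood lists fell with the globins, and their part in the result was not tested. For comparison, 2.11% of all genes tested were called lower and 2.04% higher. Of 7 megakaryocyte markers tested, 6 were lower, led by ITGA2B (log2 fold change -3.62). Of 7 myeloid markers tested, 6 were lower, led by AIF1 (-3.17). Of 12 pan-hematopoietic markers tested, 8 were lower, led by RUNX1 and SPN (-3.13), while PTPRC was at or near 0 throughout. RUNX1, MYB and IKZF1, all called, are also counted among the globin regulators above, so these lists are not separate. LAPTM5 (80.5 and 100 FPKM in Control against 87.6 and 89.9 FPKM in HAND1_OE), LCP1 and CD34 overlapped between groups. The endothelial sums overlapped between groups, at 2658 and 2212 FPKM in Control and 2587 and 2331 FPKM in HAND1_OE, with 2 lower (CLDN5 and SOX18) and 1 higher (VWF) of 15. Of 10 mesenchymal markers tested, 0 were lower and 3 higher (PDGFRB, POSTN and LUM). Of these 10, 4 had a log2 fold change below 0 and 6 above 0. COL1A1 (-0.23) and COL1A2 (-0.82) lay lower in both HAND1_OE libraries but were not called. The gate marker PECAM1 was at 95.5 and 141 FPKM in Control against 92.0 and 160 FPKM in HAND1_OE.

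**Figure D5:**
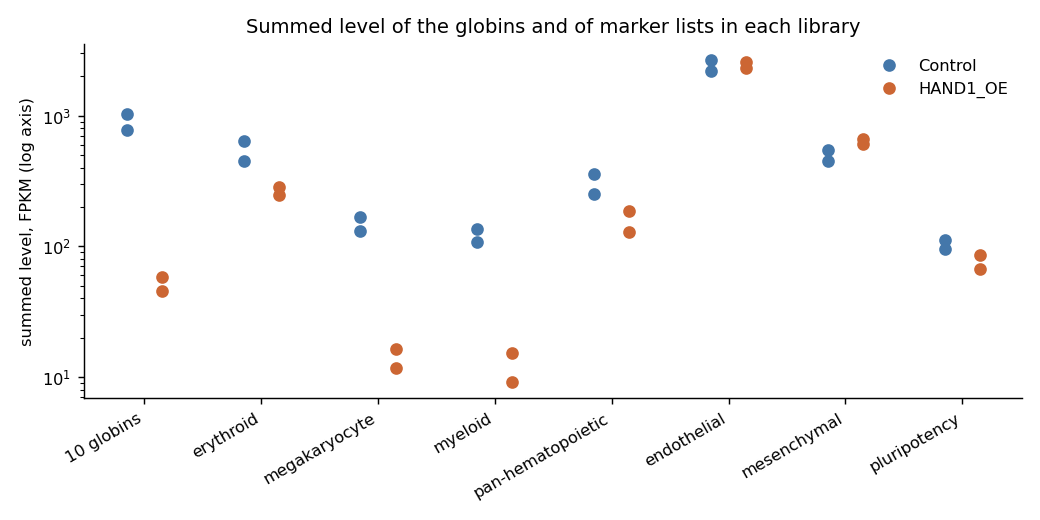
Summed FPKM (log axis) of the 10 globins and of 7 marker lists in each Control (blue) and HAND1_OE (orange) library, with 1 point per library. The globins drop from 773 and 1019 FPKM in Control to 58.5 and 45.2 FPKM in HAND1_OE, whereas the endothelial sums overlap between groups.

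Globins were also set against erythroid genes as ratios, whose direction depended on the denominator. The sum of the 10 globins over the sum of all erythroid markers was 1.71 and 1.58 in Control against 0.207 and 0.182 in HAND1_OE, and without GYPC it was 2.12 and 1.77 against 0.570 and 0.380. Over single genes that fell steeply, HBE1 was not lower. The ratio of HBE1 to GYPB was 2.07 and 2.36 in Control and 4.83 and 4.68 in HAND1_OE, and that of HBE1 to ALAS2 was 4.95 and 4.10 against 6.50 and 5.94. HBE1 to RHAG stood at 10.1 and 8.71 in Control against 22.0 and 10.1 in HAND1_OE, which overlapped. Relative to GATA1, HBE1 was at 6.82 and 9.95 in Control and at 7.86 and 20.5 in HAND1_OE, also with overlap. These denominators were chosen because they fell steeply, and the ratios are a description.

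Over the 4 libraries, the genes whose profiles were nearest to the mean profile of the 9 tested globins were C11orf21 (root mean square distance 0.0912 on the log2 scale), PTGS1 (0.104), HBBP1 (0.105), NXF3 (0.131) and GABRE (0.138). PTGS1, a cyclooxygenase of platelets, was at 9.34 and 13.4 FPKM in Control against 0.808 and 0.717 FPKM in HAND1_OE. The globins themselves lay at 0.0923 (HBG1) to 1.25 (HBB) from that mean, with HBE1 at 0.669 and HBG2 at 0.632. The mean profile thus stands for few of them, and the genes named are not near the most abundant globins. With only 2 libraries per group, such likeness says little beyond a fall of like size.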

How the data were processed

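The deposited table held a value per gene for each of the 4 libraries, taken as FPKM as made by the authors, because the axis of the study's plot for these cells names that unit and the values are not whole. Per the labels, the submitters' processing notes name BWA, Bowtie, RSEM and hg19, yet 56507 of the 58229 rows kept had the coordinates of GENCODE release 29 (GRCh38). Of 58365 rows, 45 for Y copies of pseudoautosomal genes and 91 repeats of a gene ID were left out. Coordinates are GRCh38, counted from 1. Groups came from the sample titles. Genes at 1 FPKM or more in at least 2 libraries (14622) were tested as log2(FPKM + 1) in limma 3.58.1 under R 4.3.3, two-sided, with a trend of the variance on the mean and Benjamini-Hochberg adjustment, and called at an adjusted p under 0.05. The code was tested on simulated data. Fragments were estimated from FPKM, the depth of each library and the shortest and longest coding transcripts. The shortest coding transcripts of HBD (305 nt), HBG2 (307 nt) and HBG1 (369 nt) were left out as too short. For HBG1 only the longest length was left, so its fragments are an upper estimate. The precision of the estimated fragments covers counting error only.

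Named were all 10 globins, HAND1, 10 regulators and partners, up to 4 called members of each list by size of change, and the 5 genes of nearest profile; any other gene was named after its values were seen. A gene that the rule names is not reported here. Members and lists were chosen with earlier results of these data known. Alternatives were other pseudocounts, filters and scalings, no trend, the replicate block, sums over rows of a symbol and each library left out.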

Additional observations from a re-analysis of the deposited data

How the results depend on the processing

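Under the other settings with all 4 libraries, 6 to 8 of the 10 globins were called lower, except when all genes above 0 in any library (29860) were tested. There 0 globins were called (8 at an unadjusted p under 0.05, limma), as were 0 of all genes in either direction, and 0 regulators were lower (17 at an unadjusted p under 0.05). With 1 FPKM required in every library, 7 globins were tested and 6 called, and 6 regulators were lower in place of 10. Of all genes, 233 of 12841 were called lower in that setting. In the other settings with all libraries where any gene was called, the genes called lower ran from 225 of 16345 (each library scaled to the same FPKM sum) to 712 of 14622 (replicate block). Each library was also left out in turn, and HBG1 was not tested when either Control library was left out. Such a fit leaves 1 group with a single library, which is assumed to vary like the other group. Its counts are therefore not given, and its p-values say little of stability. No globin changed direction. Over the settings the adjusted p was 0.205 to 0.905 for HBB, 4.32e-05 to 0.257 for HBD and 0.00179 to 0.214 for HBQ1, and the lowest values for HBD and HBQ1 come from fits with a single library in 1 group. The difference in the share of HBZ was -26.0 percentage points with quantile normalization. Locus changes ranged from -3.76 to -3.04 (alpha) and from -4.33 to -3.95 (beta) when each library was left out.

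Replicate numbers are shared between groups, but nothing says that they pair the libraries. Deviations of same-numbered libraries from their group means correlated at 0.383 across genes. With the replicate number as a block, 8 globins and 13 regulators were called lower, and 712 genes in all were lower and 597 higher, in place of 309 and 299.

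Depth was estimated and not given, and HBM, HBG1, HBB, HBQ1 and the alpha genes rest on few fragments in HAND1_OE, which limits their shares. The split of HBG1 from HBG2 and of HBA1 from HBA2 depends on how shared reads were divided. If some were left out, the locus sums, the ratio of beta to alpha and the share of HBZ would depend on that as well, which was not tested.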
